A study of Mus musculus with 14 samples.

Results

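Immediate early transcription factors are nuclear proteins whose genes are switched on within minutes of a stimulus, without new protein synthesis. Kinase signals reach their promoters through the serum response factor with its ELK partners and through CREB, and their transcripts usually have AU-rich 3′ untranslated regions and decay fast. Microglia and macrophages use them in early responses to injury signals, and in brain tissue they are also known to be induced by dissociation of the tissue itself. The symbols followed were Fos, Fosb, Jun, Junb, Jund, Egr1, Egr2, Atf3, Ier2 and Nr4a1, and all 10 were found among the 33939 genes measured. All 10 passed the filter on low values in every comparison.

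RNA was measured in CD11b+ cells, the microglia and other myeloid cells of the brain, sorted with magnetic beads 3 days after traumatic brain injury (TBI) by controlled cortical impact. Cells came from the lesioned ipsilateral hemisphere (IL) and the non-lesioned contralateral hemisphere (CL) of C57BL/6 mice aged 8 to 12 weeks. Ctrl mice were Cx3cr1-CreER+/- and cKO mice were Cx3cr1-CreER+/-;Nhe1flox/flox; both carried 1 Cx3cr1 allele with the CreER knock-in and both were given tamoxifen, so that CreER acted in cells that use the Cx3cr1 promoter. The 14 libraries made 4 groups, with 4 libraries for each hemisphere of Ctrl and 3 for each of cKO, from 8 mice. Both hemispheres were measured in 6 mice (Ctrl 3541, 3545, 3546 and 3551, cKO 791 and 3592), while cKO 788 gave only CL and cKO 784 only IL. All animals had TBI, so no level here is that of an uninjured brain.

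Sequencing depth, estimated from the size of the value that a single read adds, ran from 12.2 M reads in Ctrl IL 3546 to 41.6 M (M, 1e6 reads). Defining microglial markers were abundant in all groups, with P2ry12 between 1423 and 5416 CPM and Tmem119 between 1300 and 4545 CPM. The summed level of 8 microglial markers was 28153 to 35143 CPM in Ctrl CL, 25202 to 27738 CPM in cKO CL, 16114 to 17244 CPM in Ctrl IL and 14566 to 16123 CPM in cKO IL. Neutrophil markers (6 genes) reached 3524 CPM in 1 Ctrl CL library and did not exceed 785 CPM in any cKO library. Monocyte markers (6 genes) summed to 136 to 757 CPM, border-associated macrophage markers (5 genes) to 92.6 to 426 CPM and T and NK cell markers (6 genes) to at most 8.86 CPM.

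The promoters of Fos, Jun and Nr4a1 are shown because these genes differed in their course between the hemispheres of cKO mice, in which Fos and Jun were called lower in IL and Nr4a1 higher. Each is the 250 bases before the RefSeq start on the gene's own strand in GRCm38.p6, at chr12:85473640-85473889 (plus strand) for Fos, chr4:95052223-95052472 (minus strand) for Jun and chr15:101266596-101266845 (plus strand) for Nr4a1. Capitals mark TGACG, the core of a cyclic AMP response element, or CGTCA, the same letters on the other strand.
Fos: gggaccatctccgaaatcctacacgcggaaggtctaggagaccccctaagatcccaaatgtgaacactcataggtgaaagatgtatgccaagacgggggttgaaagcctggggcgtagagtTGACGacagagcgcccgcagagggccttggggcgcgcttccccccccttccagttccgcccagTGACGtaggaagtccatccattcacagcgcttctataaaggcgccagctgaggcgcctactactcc
Jun: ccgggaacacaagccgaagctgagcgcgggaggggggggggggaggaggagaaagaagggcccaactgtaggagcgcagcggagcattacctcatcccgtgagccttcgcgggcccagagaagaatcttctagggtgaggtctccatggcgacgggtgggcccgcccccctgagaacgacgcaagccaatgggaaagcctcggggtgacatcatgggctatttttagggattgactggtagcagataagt
Nr4a1: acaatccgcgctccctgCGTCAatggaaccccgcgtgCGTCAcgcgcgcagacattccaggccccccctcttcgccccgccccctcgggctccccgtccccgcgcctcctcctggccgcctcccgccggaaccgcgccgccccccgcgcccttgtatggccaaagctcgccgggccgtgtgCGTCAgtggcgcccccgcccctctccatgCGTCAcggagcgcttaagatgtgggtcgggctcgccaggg

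RefSeq windows were at hand for 8 members, all but Egr1 and Ier2. The start used for Jund lies 1210 bases from its nearest GENCODE start, and its window had a GC content of 47.6%, the lowest of the 8. TGACG, searched on both strands, was found in 5 of the 8 windows, with 4 matches in Nr4a1, 2 in Fos and 1 each in Fosb, Junb and Atf3. Of 32851 windows of the same length in RefSeq, 17.8% held it. This motif was added after the members' windows had been read, so its share is a description and not a test. The AP-1 site TGANTCA was in 0 of the 8 member windows and in 6.75% of all windows, and the CArG box, the binding motif of the serum response factor, was in 0 of 8 and in 1.47%. No matches overlapped, and the absence of a motif says only that these letters are not in this window. GC content of the members' windows had a median of 65.8%, beside 52.4% over all windows.

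Jun, Junb, Jund and Ier2 have a single exon in their longest transcript, and gene spans in GRCm38 run from 1522 bases for Ier2 to 47744 bases for Atf3. In the annotated 3′ untranslated regions, 8 of 10 members had more copies of ATTTA, the core of AU-rich elements, per kb than the median of 1.27 over 11745 expressed genes. Nr4a1 was highest with 5.525 copies per kb and Fos next with 4.91, whereas Fosb had 0.434 and Ier2 none. Exons of Jun share 232 bases with the antisense gene Junos, those of Junb 173 bases with Prdx2 on the opposite strand, and those of Jund 877 bases with the antisense gene Gm11175. The library kit does not mark strand, so reads in these stretches cannot be told apart.

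Together the 10 genes held 1.57% to 3.92% of all reads in a library. The share was 2.004% to 3.14% in Ctrl CL, 2.92% to 3.92% in cKO CL, 1.57% to 2.05% in Ctrl IL and 1.95% to 2.27% in cKO IL. CL and IL overlapped slightly in Ctrl and were separate in cKO. Levels can be set side by side between genes only per kb of exon. On that scale, in Ctrl CL, Fos was highest at 2561 ± 512 CPM per kb (SD, n = 4) and ranked 10th of all genes. Junb (2026 ± 418), Jun (1652 ± 737), Atf3 (1147 ± 112), Ier2 (943 ± 169), Egr1 (909 ± 387) and Jund (741 ± 127 CPM per kb) followed. The range of each of these genes overlapped that of the next, which in genes measured in the same libraries does not show that neighbours are equal. The ranges of Fos and Junb lay above those of Atf3, Ier2, Egr1 and Jund. Below them and separate from each other were Nr4a1 at 155 ± 32.2, Egr2 at 54.4 ± 25.3 and Fosb at 15.9 ± 4.59 CPM per kb.

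**Figure D1:**
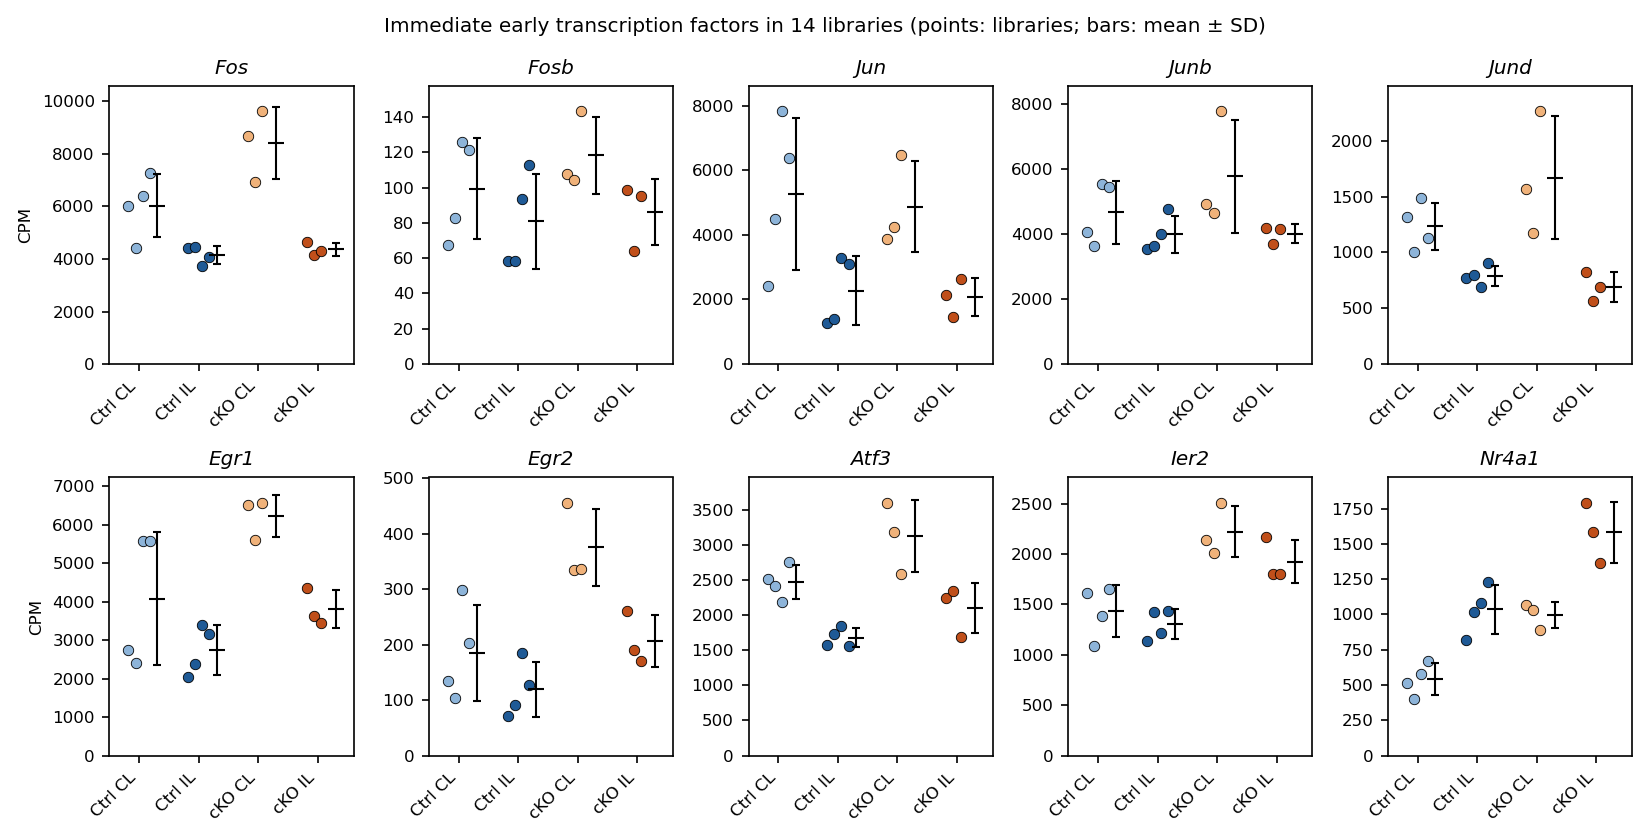
CPM of each gene (y axis, linear, from 0) in the 4 groups (x axis); points are libraries and the bar beside them is the mean ± SD (n = 4, 4, 3 and 3). Nr4a1 is higher in IL than in CL, whereas Jun, Jund and Fos are lower in IL than in CL in cKO without overlap, and Egr1, Ier2 and Nr4a1 sit higher in cKO than in Ctrl in both hemispheres.

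The first question was how the lesioned hemisphere compared with the other one. In Ctrl mice only Nr4a1 was called, and it was higher in IL. In cKO mice Nr4a1 was again higher, and Jun, Jund, Fos and Egr2 were lower in IL. A call means an adjusted p of at most 0.05 (limma, Benjamini-Hochberg over all genes tested) and a fold change of at least 1.2, and 6.58% of 16376 genes met it in Ctrl and 22.4% of 16758 in cKO. With deposited CPM left unscaled, the calls over all genes moved from 594 higher and 484 lower to 625 and 814 in Ctrl, and from 2150 and 1596 to 1647 and 2146 in cKO. The members' median log2 difference between IL and CL was -0.43 in Ctrl and -0.56 in cKO, beside -0.04 and 0.02 over all genes. In such sorted samples, fewer cells of a type and less RNA per cell cannot be told apart, and 6 of the 8 microglial markers were called lower in IL in each genotype. Of 6 neutrophil markers, 4 were called lower in IL in cKO and 0 in Ctrl (list medians -1.29 and -2.72), with sums of 330 to 3524 CPM in Ctrl CL, 69.7 to 563 in Ctrl IL, 248 to 785 in cKO CL and 121 to 187 CPM in cKO IL. Of 6 monocyte markers, 2 were called higher in IL in each genotype (medians 0.37 in Ctrl and 1.08 in cKO). The part of these markers in these differences was not tested.

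Nr4a1 encodes Nur77, an orphan nuclear receptor that restrains inflammatory gene expression in myeloid cells. In Ctrl CL it was at 517, 403, 576 and 673 CPM in mice 3541, 3545, 3546 and 3551. The IL libraries of the same mice held 817, 1015, 1084 and 1232 CPM. Every Ctrl IL value lay above every Ctrl CL value. The log2 fold change was 1.02 ± 0.15 (SE; adjusted p = 0.00436, limma), and in each of the 4 mice IL exceeded CL, by 0.74 to 1.42 on the log2 scale. In cKO CL the values were 1064 (mouse 788), 1031 (791) and 888 CPM (3592), and in cKO IL they were 1791 (784), 1586 (791) and 1364 CPM (3592). The groups again did not overlap, with a log2 fold change of 0.75 ± 0.18 (adjusted p = 0.0198, limma). The Ctrl call held in every alternative fit except the one without mice 3541 and 3545, where the log2 fold change was 0.95 with an adjusted p of 0.131.

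Its relatives Nr4a2 and Nr4a3, which were listed with other immediate early genes, were also higher in IL in both genotypes. Nr4a2 rose from 5.36 ± 2.21 to 21.1 ± 6.71 CPM in Ctrl (n = 4 each; log2 fold change 1.89 ± 0.25, adjusted p = 0.00253, limma) and from 7.94 ± 3.73 to 23.5 ± 6.96 CPM in cKO (n = 3 each; 1.56 ± 0.30, adjusted p = 0.0101, limma). Nr4a3 stayed below 10 CPM in all libraries, with log2 fold changes of 1.03 ± 0.24 in Ctrl and 1.01 ± 0.21 in cKO (limma, adjusted p = 0.0345 and 0.0123).

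Jun encodes c-Jun, the main partner of Fos in the AP-1 dimer. Its CPM in mice 3541, 3545, 3546 and 3551 was 2401, 4487, 7822 and 6368 in Ctrl CL and 1286, 1401, 3295 and 3089 in Ctrl IL. Mice 3541 and 3545 were the lowest in both hemispheres, so the groups overlapped although each mouse fell. Within mice the difference was -0.82 to -1.59 on the log2 scale. The log2 fold change was -1.14 ± 0.35 without the pairing (adjusted p = 0.0873) and passed the test with the mouse as a block (-1.14 ± 0.16, adjusted p = 0.00355, limma). In cKO, Jun was at 3872, 4253 and 6475 CPM in CL (788, 791 and 3592) and at 2133, 1446 and 2621 CPM in IL (784, 791 and 3592). All IL values were below all CL values, with a log2 fold change of -1.15 ± 0.27 (adjusted p = 0.018, limma).

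Jund encodes the AP-1 subunit that is usually kept at a steady level in resting cells. It was at 1003 to 1486 CPM in Ctrl CL and 694 to 904 CPM in Ctrl IL, without overlap. The Ctrl log2 fold change was -0.56 ± 0.19 (adjusted p = 0.113), and -0.56 ± 0.15 with the mouse as a block, which passed the test (adjusted p = 0.0424, limma). In cKO, CL held 1569, 1174 and 2265 CPM (788, 791 and 3592) and IL held 824, 561 and 690 CPM (784, 791 and 3592). The difference was -1.15 ± 0.24 (adjusted p = 0.0134, limma), and the value of cKO CL 3592 was the highest of all 14 libraries.

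Fos, the prototype of the family, was at 4406 to 7281 CPM in Ctrl CL and at 3724 to 4437 CPM in Ctrl IL. The pair from mouse 3545 differed little (4406 CPM in CL and 4437 in IL), and the other 3 Ctrl mice were lower in IL. The log2 fold change in Ctrl was -0.44 ± 0.23 (adjusted p = 0.309, limma). In cKO, CL held 8691, 6915 and 9621 CPM (788, 791 and 3592) and IL held 4640, 4157 and 4315 CPM (784, 791 and 3592). The groups were separate and Fos fell by 0.85 ± 0.26 on the log2 scale (adjusted p = 0.0476, limma), a call lost in each fit that left out 1 library. The 7 IL libraries of both genotypes lay between 3724 and 4640 CPM, a narrower span than the CL libraries showed.

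The other AP-1 subunits were closer between hemispheres. Junb, which often opposes Jun, differed by -0.14 ± 0.18 in Ctrl and -0.40 ± 0.26 in cKO, and Fosb by -0.23 ± 0.20 and -0.38 ± 0.16 on the log2 scale; neither was called (adjusted p = 0.757, 0.304, 0.577 and 0.134, limma). Atf3, a stress-induced bZIP repressor, was at 2182 to 2762 CPM in Ctrl CL and 1559 to 1845 CPM in Ctrl IL, with no overlap before scaling. Its log2 fold change of -0.48 ± 0.18 was not called (adjusted p = 0.154) but passed the test with the mouse as a block (-0.48 ± 0.12, adjusted p = 0.0283, limma). In cKO it went from 2583 to 3601 CPM in CL to 1691 to 2348 CPM in IL (-0.49 ± 0.24, adjusted p = 0.178, limma).

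Egr1 and Egr2 encode zinc-finger factors; Egr2 is also known for its part in myeloid differentiation. Egr2 was at 134, 105, 298 and 203 CPM in Ctrl CL and at 72.2, 91.9, 185 and 128 CPM in Ctrl IL (mice 3541, 3545, 3546 and 3551). It was lower in IL in each mouse, while the groups overlapped. Its log2 fold change was -0.53 ± 0.28 (adjusted p = 0.322), and -0.53 ± 0.12 with the block, which passed the test (adjusted p = 0.0203, limma). In cKO it fell by 0.78 ± 0.21 on the log2 scale (adjusted p = 0.0293, limma), from 334 to 456 CPM in CL to 171 to 260 CPM in IL. Egr1 was not called, at -0.43 ± 0.25 in Ctrl and -0.63 ± 0.24 in cKO (adjusted p = 0.391 and 0.0932, limma); in cKO it was called without scaling (adjusted p = 0.0273) and without a variance trend (adjusted p = 0.0289). Ier2, a small nuclear protein induced by growth factors, was nearest to no difference, at -0.05 ± 0.19 in Ctrl and -0.12 ± 0.18 in cKO (95% intervals -0.47 to 0.36 and -0.53 to 0.28).

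**Figure D2:**
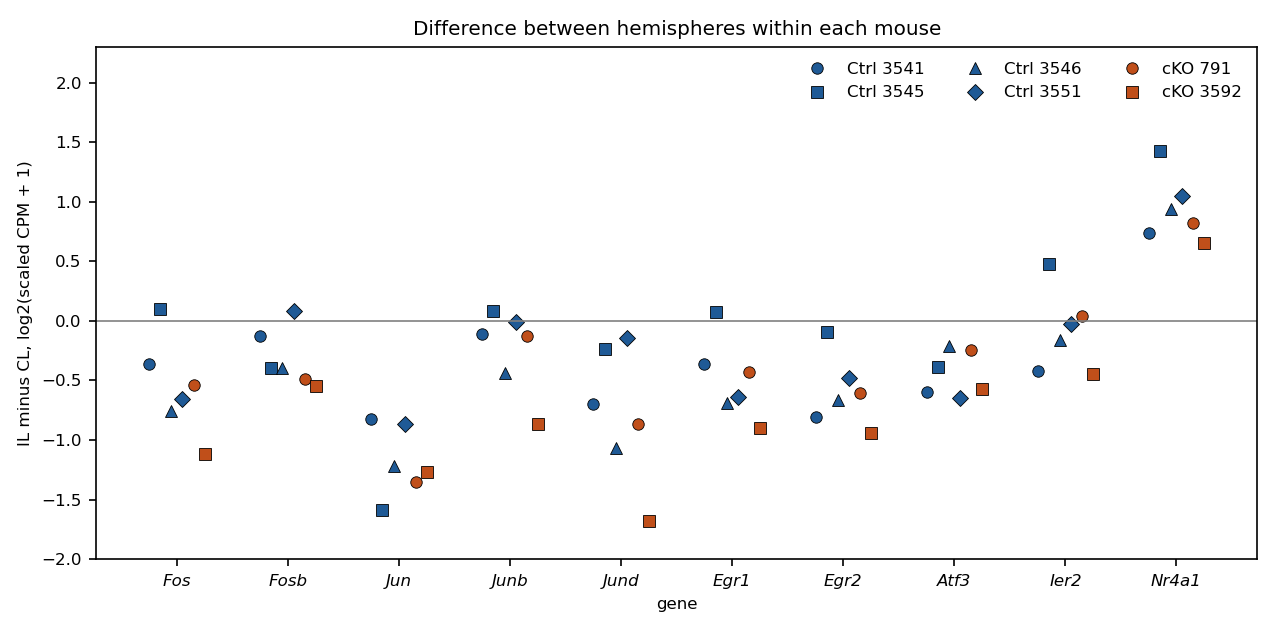
Difference between IL and CL within each of the 6 mice with both hemispheres (y axis, log2 of scaled CPM + 1; blue, Ctrl; orange, cKO; each symbol is 1 mouse) for each gene (x axis). Nr4a1 is above 0 in all 6 mice, and Jun, Jund, Egr2 and Atf3 are below 0 in all 6.

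In the 6 mice with both hemispheres, 4 of 10 members (Jun, Jund, Egr2 and Atf3) were lower in IL in every mouse, as were 15% of 18476 genes. Of the members, Nr4a1 alone was higher in every mouse. Shares of all genes higher in every mouse, or higher in IL without overlap, were not counted. In unscaled CPM, 8 of 10 members were lower in IL without overlap in cKO, beside 24.3% of all genes, and 2 of 10 in Ctrl, beside 11.4%. The tests used scaled values, on which overlap was not counted. With the mouse as a block, 5 members were called in Ctrl (Nr4a1, Jun, Jund, Egr2 and Atf3), when 20.5% of all genes were called. In cKO, the fit with the mouse as a random block called the same 5 members as without it, when 28.2% of genes were called. Leaving out 1 cKO library lowered the calls of members and of all genes together. The 5 calls became 0 without cKO IL 791, when 1906 of 17247 genes were called in place of 3746 of 16758. They became 2 (Egr2 and Jund) without cKO IL 784, when 1882 of 17221 genes were called. They became 3 (Nr4a1, Jun and Jund) without cKO CL 788 or cKO IL 3592, when 2461 of 17195 and 2423 of 17585 genes were called. They became 4 (Nr4a1, Egr2, Jun and Jund) without cKO CL 791 or cKO CL 3592, when 3043 of 17613 and 3538 of 17598 genes were called. The call of Fos was thus lost in each of the 6 fits. Over all alternative fits its log2 fold change was -0.98 to -0.75, and that of Egr2 was -0.96 to -0.59. The log2 fold changes stayed at -1.29 to -0.94 for Jun, -1.38 to -0.91 for Jund and 0.65 to 0.91 for Nr4a1 over the 6 fits that each left out 1 library.

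The second question was how Nhe1 deletion related to these levels within a hemisphere. No member was called in either hemisphere, but Egr1, Ier2 and Nr4a1 were higher in cKO without overlap in both, and Egr2 in CL. In CL 4 of 10 members were higher without overlap, beside 3.97% of all genes tested, and in IL 3 of 10, beside 4.85%. The calls over all genes were 0.873% in CL and 0.658% in IL. The members' median log2 difference was 0.44 in CL and 0.23 in IL, beside -0.05 and 0.01 over all genes. Markers of other cell types were lower in the same CL comparison, with list medians of -1.48 for 6 neutrophil, -1.02 for 5 border-associated macrophage, -0.76 for 6 monocyte and -0.52 for 5 oligodendrocyte markers. None of these markers was called, and their part in the members' values was not tested. In IL these medians were -0.22, -0.15, 0.19 and 0.22, again with 0 calls.

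Nr4a1 came nearest to a call in CL. Its 403 to 673 CPM in Ctrl and 888 to 1064 CPM in cKO gave a log2 fold change of 0.89 ± 0.18 (adjusted p = 0.0549, limma). It was called when all 14 libraries entered a single fit that blocked on the mouse as a random term (0.92 ± 0.17, adjusted p = 0.00971), and so was Egr2 (1.16 ± 0.25, adjusted p = 0.0314, limma); 1.57% of genes were called in that fit. In IL, where Ctrl held 817 to 1232 and cKO 1364 to 1791 CPM, the difference was 0.63 ± 0.17 (adjusted p = 0.223, limma). The cKO CL values lay within the Ctrl IL range, and cKO IL was above all other libraries.

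Egr2 had the widest difference between genotypes. Ctrl CL held 105 to 298 CPM and cKO CL 334 to 456 CPM, a log2 fold change of 1.11 ± 0.27 (adjusted p = 0.114, limma). In IL the ranges of 72.2 to 185 and 171 to 260 CPM overlapped (0.87 ± 0.25, adjusted p = 0.257, limma). Ctrl mouse 3546 had the highest Ctrl value in both hemispheres, and without it Egr2 was called in CL (adjusted p = 0.0245) and in IL (adjusted p = 0.0285, limma). In these fits 165 of 16454 genes were called in CL, against 145 of 16603 with all libraries, and 284 of 16492 in IL, against 111 of 16873. Egr3, a related factor among the other immediate early genes, was called in CL, with 3.66 to 14.1 CPM in Ctrl and 27.3 to 33.0 CPM in cKO (log2 fold change 1.93 ± 0.34, adjusted p = 0.0264, limma). In IL it was at 2.90 to 16.5 and 20.8 to 29.6 CPM and was not called (1.67 ± 0.42, adjusted p = 0.183, limma).

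For Egr1, Ctrl CL held 2755, 2409, 5582 and 5566 CPM (3541, 3545, 3546 and 3551) and cKO CL 6507, 5594 and 6566 CPM (788, 791 and 3592). Ctrl mice 3546 and 3551 thus lay close below the cKO libraries, and mice 3541 and 3545 far below. The log2 fold change was 0.70 ± 0.31 in CL and 0.51 ± 0.18 in IL (adjusted p = 0.486 and 0.402, limma). Ier2 was more even, at 1090 to 1651 CPM in Ctrl CL and 2016 to 2510 CPM in cKO CL, and at 1139 to 1431 and 1800 to 2174 CPM in IL. Its log2 fold changes were 0.64 ± 0.22 and 0.58 ± 0.17 (adjusted p = 0.319 and 0.287, limma).

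The AP-1 subunits and Atf3 overlapped between genotypes in both hemispheres. Fos differed by 0.48 ± 0.29 in CL and 0.09 ± 0.21 in IL, and Jun by -0.03 ± 0.36 and -0.03 ± 0.31 on the log2 scale; the sign of the Jun value in CL turned under 2 other scalings. For Jun, 95% intervals ran from -0.82 to 0.76 in CL and from -0.75 to 0.69 in IL, so differences of that size were not detectable here. Jund was at 0.39 ± 0.25 in CL and -0.19 ± 0.18 in IL, Junb at 0.28 ± 0.28 and 0.03 ± 0.17, Fosb at 0.27 ± 0.19 and 0.13 ± 0.21 and Atf3 at 0.32 ± 0.24 and 0.32 ± 0.19.

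**Figure D3:**
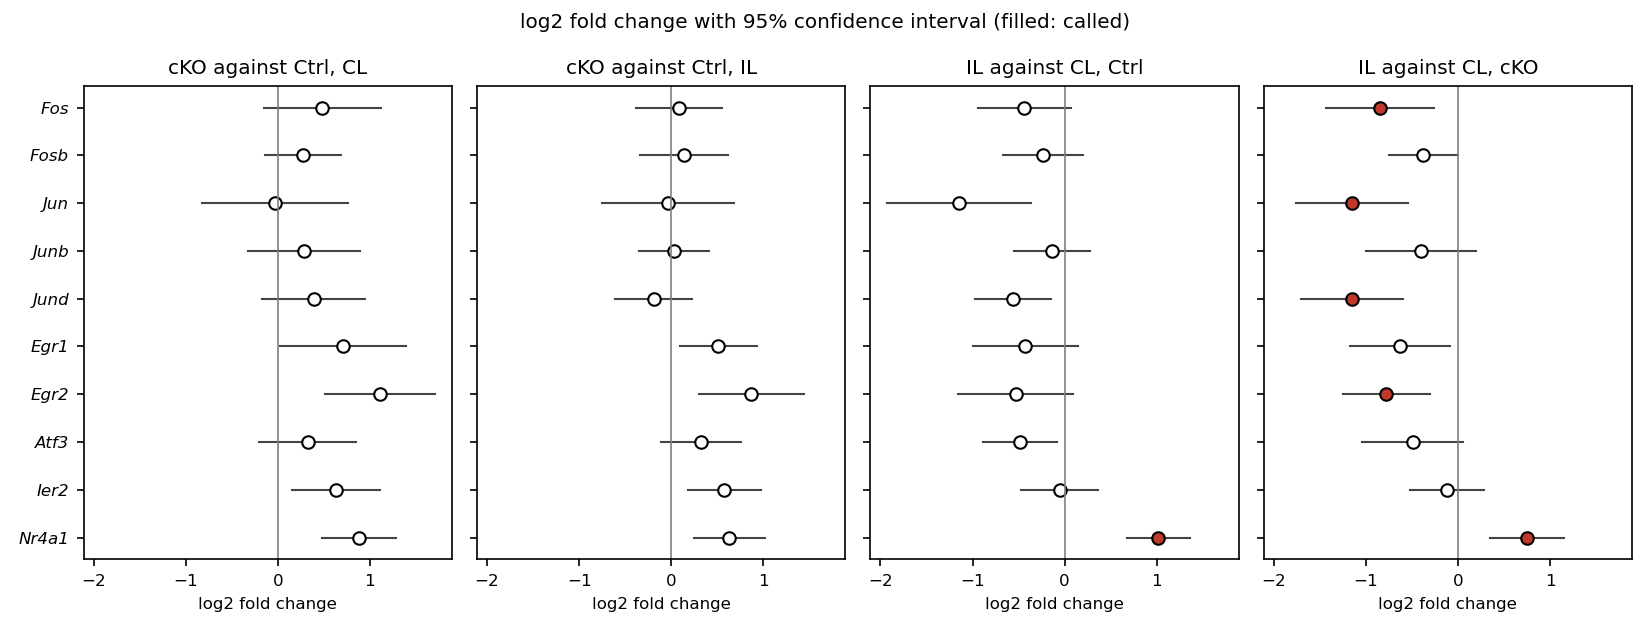
log2 fold change (x axis) of each gene (y axis) with its 95% confidence interval in 4 comparisons; filled points were called. Nr4a1 is called in both comparisons of IL with CL, Fos, Jun, Jund and Egr2 are called in cKO, and no gene is called between genotypes.

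Whether the hemispheres differed more in one genotype than in the other was tested as an interaction. No member was called, and neither was any of 18476 genes (0.0%; limma called 0, and 481 genes had an unadjusted p under 0.05). With the mouse as a random block limma called 3 genes, none of them a member. The largest member values were -0.58 ± 0.32 for Jund (95% interval -1.27 to 0.10) and -0.40 ± 0.31 for Fos (-1.06 to 0.26). The calls of Fos, Jun, Jund and Egr2 in cKO and not in Ctrl therefore do not show that the genotypes differ.

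Levels of the Ctrl mice fell into high and low animals for several members. In unscaled CPM, mice 3541 and 3545 had the lowest Fosb, Egr1 and Egr2 values of the Ctrl mice in both hemispheres, and the lowest Jun and Junb values too. Scaling factors were 0.879 to 0.943 in these mice and 1.014 to 1.149 in mice 3546 and 3551. This order therefore need not hold for every gene on the tested scale. Mice 3541 and 3545 also had the highest heat shock transcripts. Hspa1b was at 1765 and 3149 CPM in their CL libraries, beside 1455 and 1000 CPM in mice 3546 and 3551. Hspa1b and Hspa1a are near-identical genes for the inducible Hsp70 chaperone, and their reads may be split. Between genotypes Hspa1b was not called, though the ranges did not overlap: it ran from 1000 to 3149 CPM in Ctrl CL and from 166 to 505 CPM in cKO CL (log2 fold change -2.32 ± 0.47, adjusted p = 0.0527, limma). In IL it was at 289 to 757 and 66.9 to 131 CPM (-2.18 ± 0.40, adjusted p = 0.0704, limma). The part of these transcripts in the member differences was not tested. Without mice 3541 and 3545, an alternative chosen after these values were seen, the difference in CL was 0.29 for Egr1, 0.73 for Egr2, 0.68 for Ier2 and 0.80 for Nr4a1 on the log2 scale, and no member was called. In that fit 79 of 17187 genes were called, against 145 of 16603 with all libraries.

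**Figure D4:**
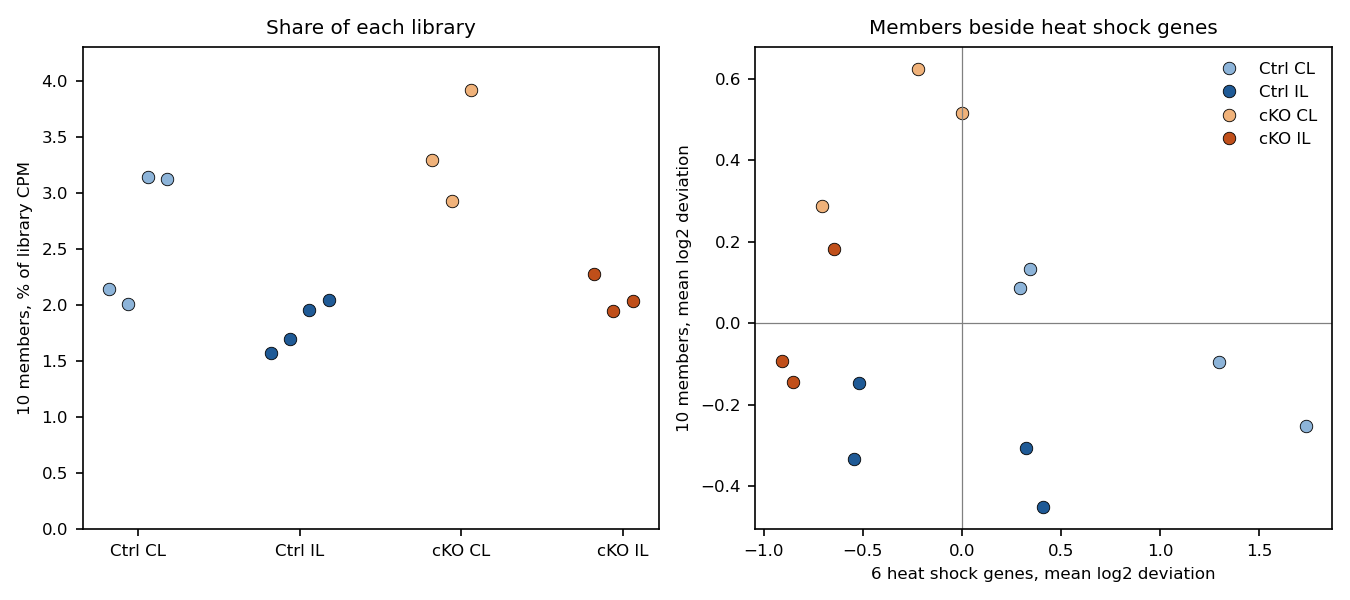
Left, share of library CPM held by the 10 genes (y axis, %) in each group. Right, mean log2 deviation of the 10 genes from their own means over 14 libraries (y axis) against that of 6 heat shock genes (Hspa1a, Hspa1b, Hspa8, Dnajb1, Hsp90aa1 and Hsph1; x axis); each point is a library. The cKO CL libraries are highest on the y axis and Ctrl CL 3541 and 3545 farthest right.

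Averaged over the 10 genes, the deviation from each gene's own mean was 0.29 to 0.62 in cKO CL, -0.25 to 0.13 in Ctrl CL, -0.14 to 0.18 in cKO IL and -0.45 to -0.15 in Ctrl IL on the log2 scale. In cKO CL 788 all 10 members were above their own means, and in 3 of the 4 Ctrl IL libraries only 1 was. Over the 14 libraries, which differ in depth and group, Egr1 followed the mean of the other 9 members most closely (Pearson r = 0.907) and Nr4a1 least (-0.133). With group means removed, Nr4a1 had r = 0.474 and Atf3 had -0.371. The 5 other genes most like the members' mean, of 9743 searched, were Spry1 (0.936), Tspan18, Lrmp, Cand2 and Vgll4, and with group means removed they included Mier2 (0.884), Creld1, Efhd2 and Spsb1. These are descriptions over 14 libraries that share mice, depth and group, with no test.

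Other genes of the pathway were called in both directions between hemispheres, where 6.58% of all genes were called in Ctrl and 22.4% in cKO. Of 12 other AP-1 and bZIP genes, 2 were higher in IL in Ctrl and none lower: Fosl2, a Fos relative (0.95 ± 0.21, adjusted p = 0.0265, limma), and Maff, a small Maf protein (0.85 ± 0.19, adjusted p = 0.0305, limma). In cKO 5 were higher, among them Maff (1.35 ± 0.31), Jdp2, a repressor of AP-1 (0.98 ± 0.22), and Crem, a CREB relative (0.92 ± 0.19), and 1 was lower, Batf3 (-0.89 ± 0.19). Of 24 other immediate early genes, 23 were tested; 4 were higher and 4 lower in Ctrl, and 6 were higher and 6 lower in cKO. Plk2, a stress-induced kinase, rose in both genotypes (1.51 ± 0.29 and 1.86 ± 0.20). Gadd45b rose in both (1.02 ± 0.22 in Ctrl and 1.16 ± 0.09 in cKO) and Klf2, a quiescence factor, fell in both (-0.85 ± 0.22 and -1.24 ± 0.21). Ccn1, a secreted matrix protein, fell in Ctrl (-1.06 ± 0.27) and was at 0.26 ± 0.19 in cKO, where it was not called. The list medians were 0.28 and 0.61 for AP-1 genes and 0.14 and -0.11 for the other immediate early genes, in Ctrl and cKO. Between genotypes the median of the other immediate early genes was 0.41 in CL and 0.39 in IL.

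Among 8 feedback phosphatases and corepressors, 7 were tested, of which 4 rose and 1 fell in IL in Ctrl (6.58% of all genes were called) and 5 rose and 1 fell in cKO (22.4%). The list median was 0.68 in Ctrl and 0.66 in cKO. Dusp4 and Dusp5, nuclear phosphatases of the MAP kinases, rose in Ctrl (1.12 ± 0.23 and 1.40 ± 0.27) and in cKO (1.63 ± 0.22 and 1.27 ± 0.18). Nab1, a corepressor of the Egr factors, rose in cKO (0.90 ± 0.14), and Dusp6, a cytoplasmic ERK phosphatase, fell in both (-0.89 ± 0.16 and -1.12 ± 0.16). Dusp2 was the one gene of this list called between genotypes. It was at 45.6 to 80.0 CPM in Ctrl CL, 130 to 141 in cKO CL, 105 to 118 in Ctrl IL and 191 to 217 CPM in cKO IL. Between genotypes the log2 fold change was 0.999 ± 0.19 in CL and 0.88 ± 0.11 in IL (adjusted p = 0.0383 and 0.00886, limma), and between hemispheres in Ctrl 0.79 ± 0.17 (adjusted p = 0.0255, limma). Neither hemisphere showed overlap of the genotypes for Dusp2. Between genotypes, of the other immediate early genes, Egr3 was higher and Ccn1 lower in cKO CL (-1.40 ± 0.27, adjusted p = 0.0442, limma), and none was called in IL, where Klf10, a TGF-beta inducible factor, had the smallest p (0.67 ± 0.16, adjusted p = 0.174, limma). No AP-1 or bZIP gene of that list was called between genotypes; the smallest p belonged to Jdp2 in CL (-0.66 ± 0.25, adjusted p = 0.402) and to Maff in IL (0.79 ± 0.22, adjusted p = 0.238, limma).

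Of 20 upstream kinases and factors such as Srf and Creb1, none was called in Ctrl, in the fit without the mouse as a block, or between genotypes. Mef2c came nearest in Ctrl (-0.70 ± 0.19, adjusted p = 0.0553) and in CL between genotypes (0.31 ± 0.19, adjusted p = 0.649), and Elk3 in IL (0.22 ± 0.10, adjusted p = 0.583, limma). The list median between hemispheres was -0.05 in Ctrl and -0.14 in cKO, and in cKO 6 of 20 were lower in IL and none higher, a share near the 22.4% of all genes called there. The 6 included Rps6ka5, the histone kinase Msk1 (-0.81 ± 0.11), Mef2c, a microglial MEF2 factor (-0.77 ± 0.13), Mef2a (-0.58 ± 0.09) and Mapk14, the kinase p38 alpha (-0.51 ± 0.10). Of 17 genes of the dissociation and heat shock response, 2 fell in IL in Ctrl, Ier5 and Btg2 (-0.89 ± 0.14 and -0.85 ± 0.16). In cKO 6 fell, with Hspa1b at -1.61 ± 0.42 and Hspa1a at -1.09 ± 0.27, and none rose in either genotype; 6.58% of all genes were called in Ctrl and 22.4% in cKO. Hspa1b was also lower in IL in each of the 4 Ctrl mice, from 1000 to 3149 CPM in CL to 289 to 757 CPM in IL without overlap; its log2 fold change of -1.74 ± 0.46 was not called (adjusted p = 0.054) and passed the test with the mouse as a block (-1.74 ± 0.18, adjusted p = 0.00112, limma). Hspa1a did likewise (-1.51 ± 0.44, adjusted p = 0.0753, and -1.51 ± 0.16, adjusted p = 0.00112 with the block, limma). Within this list 5 genes (Zfp36, Btg2, Dusp1, Ier5 and Klf6) also belong to the lists above. The list's median was -0.31 in Ctrl and -0.28 in cKO. No gene of the related lists was called in the interaction, where Ccn1 had the smallest unadjusted p of them (1.33 ± 0.37, unadjusted p = 0.00287, limma). In cKO, Fos, Jun, Jund and Egr2 and the 6 genes of the dissociation and heat shock list were called lower in the same comparison in which Nr4a1 and Nr4a2 were called higher; the part of the list in the member values was not tested.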

How the data were processed

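RNA of sorted CD11b+ cells was sequenced by the authors after Smart Seq v4 library preparation, aligned with STAR to mm10 and quantified in Partek Flow 8.0, as stated in the methods and the processing notes. The gene table deposited by the authors is named as raw counts, but each library sums to 1e6, so its values were used as counts per 1e6 reads (CPM). Between 78.9% and 83.5% of low values were whole multiples (within 0.03) of the step that a single read adds; this was too few for a count test. The step gave depths of 12.2 to 41.6 M reads (M, 1e6). Tables of the authors' own fold changes and p-values were not used.

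CPM were scaled by trimmed means of M values (30% and 5% trimmed) and tested as log2(CPM + 1) with limma 3.58.1 in R 4.3.3, using a variance trend. Fold changes are on this scale, which understates changes of low genes. Ranges and overlap of groups in CPM are unscaled. Scaling factors ran from 0.879 to 1.149, so groups that lie close may overlap once scaled. Genes needed the level of 10 reads at median depth in as many libraries as the smaller group and 15 reads in total. Benjamini-Hochberg adjustment covered all genes tested; calls had an adjusted p of at most 0.05 with a fold change of 1.2 or more. The code was tested on simulated data. Each comparison used its own groups, and the interaction used all 14 libraries. Libraries are separate sorted samples. IL and CL libraries with the same mouse number come from the same animal, and their deviations from group means correlated with r from 0.18 to 0.61 over genes in all 6 mice. Fits with the mouse as a replicate block are therefore given where they changed a call of a member. Of the related lists, they are given only for Hspa1a and Hspa1b. Numbers of libraries limit the precision.

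Gene positions, exon lengths and 3′ untranslated regions came from GENCODE vM21 (GRCm38) and promoters from RefSeq (GRCm38.p6); 33802 of 33939 gene IDs had a name there. TGACG was added as a motif after the windows had been read. Related genes were named by rule: per list and comparison up to 4 called genes with the largest absolute log2 fold change, or the gene of smallest p where none was called; the 5 genes most like the members were taken among those with a mean log2(CPM + 1) of at least 3. The members and lists were chosen with earlier results of these data known. Values of some genes are not reported here. Figures used matplotlib.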

Additional observations from a re-analysis of the deposited data

Results flagged for a closer look

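Jund in Ctrl IL of mouse 3546 stood apart from the other 3 libraries of its group: its scaled level was 9.28 on the log2(CPM + 1) scale, while the others lay between 9.77 and 9.82. The gap to the nearest library made up 0.918 of the group's range. This library was also the shallowest, with 12.2 M reads. In unscaled CPM the value of 694 was closer to the others (768 to 904 CPM). The 10 genes gave 20 such tests in the Ctrl groups, and chance flags about 1 in 20.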

How the results depend on the processing

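Of 1070 recomputed log2 fold changes of the 10 genes in 5 comparisons, 993 kept their direction and their side of the threshold, 22 lost a call, 21 gained one and 34 changed sign. Between genotypes in CL, 0 members were called; this became 1 (Nr4a1) with a pseudocount of 0.1, upper-quartile scaling, median-ratio scaling or all 14 libraries in a single fit with no replicate block, and 2 with the mouse as a random replicate block. Over all genes, 145 of 16603 were called there, against 148 to 156 with these pseudocount and scaling changes. The fits of all 14 libraries called 265 and 290 of 18476 genes. Leaving out single libraries gave 0 to 1 members in CL and 0 to 1 in IL, when 70 to 165 and 46 to 284 of all genes were called. For IL against CL in Ctrl, the 1 call became 3 without scaling, 2 and 4 in the fits of all 14 libraries without and with the replicate block, 5 with the mouse as a fixed replicate block, 0 without mice 3541 and 3545 (which leaves 2 libraries a group), and 1 to 2 when single libraries were left out. Of all genes, 1078 of 16376 were called in Ctrl, against 1439 without scaling and 3358 with the fixed block. The fits of all 14 libraries called 2009 and 4258 of 18476 genes. Without mice 3541 and 3545, 34 of 16287 genes were called, and with single libraries left out 487 to 1413. In cKO the 5 calls became 6, with Egr1 added, without scaling or without a variance trend, and became 3 without a filter on low values or in the fit of all 14 libraries without the block, 2 with a fold change of at least 2, and 0 to 4 when single libraries were left out. Of all genes, 3746 of 16758 were called in cKO, against 2436 of 33319 without the filter, 1391 of 18476 in the fit of all 14 libraries, 822 of 16758 with a fold change of at least 2, and 1882 to 3538 with single libraries left out. The block on the mouse changed no other call of a member. The causes of these changes were not tested.

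Several log2 fold changes changed sign. In CL between genotypes, Jun was at 0.0498 with upper-quartile and 0.0085 with median-ratio scaling, and at -0.31 to 0.16 when single libraries were left out. In IL between genotypes these ranges were -0.0352 to 0.161 for Fos, -0.21 to 0.17 for Jun and -0.0324 to 0.0931 for Junb, and Fosb was at -0.13 without mice 3541 and 3545. For IL against CL in Ctrl, Ier2 was at 0.00013 with upper-quartile scaling and at -0.172 to 0.0569 with single libraries left out. In the interaction the ranges were -0.271 to 0.0211 for Fosb, -0.23 to 0.28 for Jun, -0.14 to 0.19 for Atf3 and -0.176 to 0.0285 for Ier2; Atf3 was at 0.0154 with the replicate block and Egr1 at 0.055 without mice 3541 and 3545. With 3 or 4 libraries a group and no uninjured animals, 95% intervals reached 0.34 to 0.79 on either side of a log2 fold change, which limits what could be detected.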
